A study of Mus musculus with 2 samples.

Results

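Potassium channel genes were followed in ventral midbrain RNA, taken from mice aged 2 months. The members are the gene rows whose symbol begins with Kcn, goes on with letters and then holds a number, which gave 96 of the 31252 rows. Of these, 93 are channel genes or their auxiliary subunits, and 3 are noncoding transcripts that carry a channel gene's name (Kcnq1ot1, Kcnd3os and Kcnmb4os1). The symbol rule used no measured value. The study crossed mice in which the dopamine transporter gene Slc6a3 drives Cre recombinase, so that dopaminergic neurons alone should recombine, with mice that carry CAG-S-COUP-TFII, an allele from which Cre switches on the nuclear receptor COUP-TFII, and asked how the midbrain transcriptome responds in whole tissue. The control genotype is Slc6a3-Cre alone, the overexpressing genotype is Slc6a3-Cre; CAG-S-COUP-TFII, and the strain of both is given as an incipient congenic C57BL/6. There was 1 library of each genotype, labelled Ctrl and OE, with 16984336 and 21326632 expected counts. In the crosses described in the study's methods, littermates of both genotypes also carried at least 1 floxed Tfam allele and a tdTomato reporter, and the labels do not say whether the sequenced mice came from these crosses.

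Potassium channels let potassium ions leave or enter the cell along their gradient and so set the resting potential, shape the action potential and limit how fast a neuron can fire. Voltage-gated channels open on depolarization, calcium- or sodium-activated channels open when these ions rise inside the cell, inward rectifiers carry current near and below the resting potential, and two-pore domain channels give a standing leak. In dopaminergic neurons, A-type channels with Kv4.3 and small-conductance calcium-activated channels with SK3 set the pace of spontaneous firing, and GIRK channels with GIRK2 carry the inhibition by dopamine D2 and GABA-B receptors.

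With 1 library per genotype, no difference below has a check across animals, and no test was made. Each difference is a log2 fold change with the OE label over the Ctrl label, taken from counts scaled by TMM after adding a pseudocount of 0.5. The range that follows it is an exact 95% Clopper-Pearson interval on the split of the counts, which covers counting error only and compares these 2 libraries, not the genotypes. Nr2f2, the gene for COUP-TFII and the one that the allele overexpresses, had 637 counts under the Ctrl label and 377 under the OE label, a difference of -1.07 (-1.26 to -0.88). In these whole-tissue counts the overexpressed gene thus goes against the labels, and every direction below is that of the labels as the authors gave them. The study reported more COUP-TFII mRNA in dopaminergic neurons isolated from overexpressing mice, which is a different measure. The labels name dopaminergic neurons as the cell type, but the tissue held other cells in large numbers: Mbp, a myelin gene, had 128974 and 139810 counts and Th, the rate-limiting enzyme of dopamine synthesis, had 2499 and 9354.

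Cell type markers differed between the libraries, and these values stand beside all results below. Each of 12 dopaminergic markers had more in the OE library, with a median difference of 1.26 (range 0.79 to 2.00), and their summed normalized counts were 29268 under the Ctrl label and 69315 under the OE label. All 10 thalamus markers were lower, by a median of -2.03, with summed normalized counts of 15518 and 7596. Oligodendrocyte (4 of 6), microglia (3 of 5), endothelial (3 of 4) and mural (3 of 5) markers were lower by more than log2 0.2, with medians of -0.32, -0.35, -0.25 and -0.23, against -0.11 for 6 astrocyte markers, -0.077 for 2 markers of oligodendrocyte precursors, 0.075 for 4 pan-neuronal and 0.11 for 4 GABAergic markers. The pan-neuronal and GABAergic lists were split. Intervals lay above 0 for 3 pan-neuronal markers and below 0 for 1 (Rbfox3, at -0.21). Of the GABAergic markers, 2 lay above and 2 below, from -0.11 for Gad1 to 0.34 for Pvalb. Other lists were also mixed or rested on few counts: of their markers that averaged 10 counts or more, 4 of hypothalamus had a median of -2.41, 4 of forebrain pyramidal neurons 0.45, 3 of choroid plexus -0.92, 3 of ependyma 0.063 and 2 of serotonergic neurons 2.58. The markers at 0 under the OE label were Gbx2 of thalamus, Ccdc153 of ependyma, Agrp of hypothalamus and Fev of serotonergic neurons, of which Agrp and Fev also had only 2 counts and 1 under the Ctrl label. The part of these markers in the results below was not tested, and in such bulk tissue fewer cells of a type and less RNA per cell cannot be told apart.

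Of the 96 members, 7 had no count in either library and another 12 had a mean under 10 counts, which left 77 for counts and medians. Summed over all members, the level was 4193 CPM (counts scaled to the same library total) under the Ctrl label and 4115 under the OE label. Their median difference was -0.053, beside 0.0046 over the 15246 genes that averaged 10 counts or more. By more than log2 0.2, the fold threshold of the study's methods, 14 members (18.2%) were higher under the OE label and 21 (27.3%) were lower, beside 17.9% and 16.6% of all genes tested. The higher share is that of the background. Of the 21 lower members, 13 had a mean under 100 counts, and the interval included 0 for 10 of the 21 and for 3 of the 14. With the interval also required to exclude 0, 11 members (14.3%) were higher and 11 (14.3%) lower, beside 9.90% and 9.16% of all genes. Among the 50 members that averaged 100 counts or more, 8 were higher and 8 lower, 16.0% each way beside 13.0% and 11.7% of all genes at that depth. Past log2 0.5 there were 8 higher and 10 lower members (10.4% and 13.0%), beside 5.59% and 5.03% of all genes. With a mean of 100 counts or more, 4 of 50 members were higher and 1 of 50 lower past log2 0.5. The shares of all genes at that depth were 1.93% and 1.58%. Most of the 10 lower members thus had a mean under 100 counts. Past log2 1 there were 0 higher and 1 lower of the 77 members, beside 1.53% and 1.28% of all genes.

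**Figure D1:**
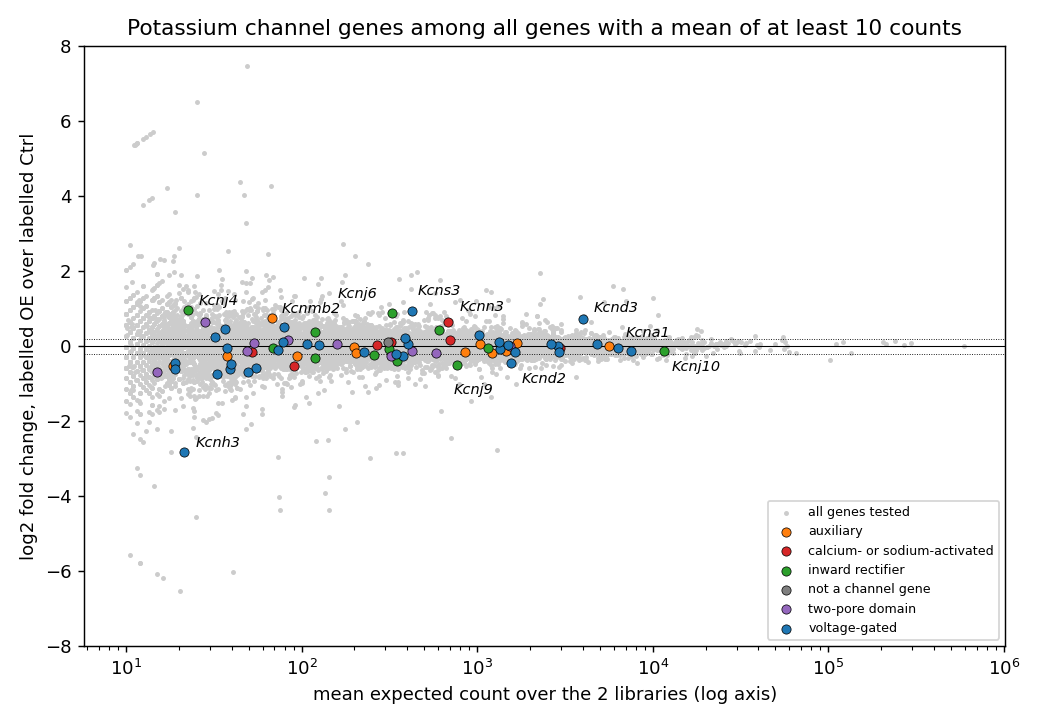
Each point is 1 gene, with its mean expected count over both libraries on a log axis against its log2 fold change with the OE label over the Ctrl label. Grey points are all 15246 genes tested, coloured points the 77 members by channel class, and dotted lines log2 0.2 in either direction. Of the members, 42 lie between the dotted lines, Kcnd3, Kcns3, Kcnj6 and Kcnn3 lie between 0.65 and 0.93, and Kcnh3 lies at -2.83.

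Levels of different genes were compared as CPM per kilobase of the longest protein-coding transcript in GENCODE M21. For these levels, CPM was taken on the TMM-scaled library size in place of the library total. Kcnj10, which encodes the Kir4.1 channel of glia that clears potassium from around neurons, had the highest level in both libraries, at 118 under the Ctrl label and 108 under the OE label. Kcna1, a Kv1 channel of axons, followed at 84.2 and 81.2, and Kcnab2, the auxiliary beta subunit that binds Kv1 channels, at 74.4 and 75.01. The highest two-pore domain channel was Kcnk1, at 35.8 and 35.9, and the highest calcium- or sodium-activated channel was Kcnt1, a sodium-activated channel, at 26.9 and 25.9. None of these 5 leading members of their classes differed by more than log2 0.2: the values were -0.13 for Kcnj10, -0.053 for Kcna1, 0.013 for Kcnab2, 0.0043 for Kcnk1 and -0.050 for Kcnt1. The order near the top depends on the transcript length. With the median length of a gene's protein-coding transcripts, a choice made after the data were seen, Kcnab2 led in both libraries, with 185 and 186.7, Kcnj10 followed, and the third place was held by Kcna2 under the Ctrl label and by Kcnd3 under the OE label, where Kcna2 was the fifth. With that length, 8 of the 10 highest members were shared in each library. By the longest transcript Kcnd3 was at place 14 under the Ctrl label and 6 under the OE label, with a level of 21.3 and 35.3, and by the median length it was at place 5 and 3, with 57.3 and 94.8.

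**Figure D2:**
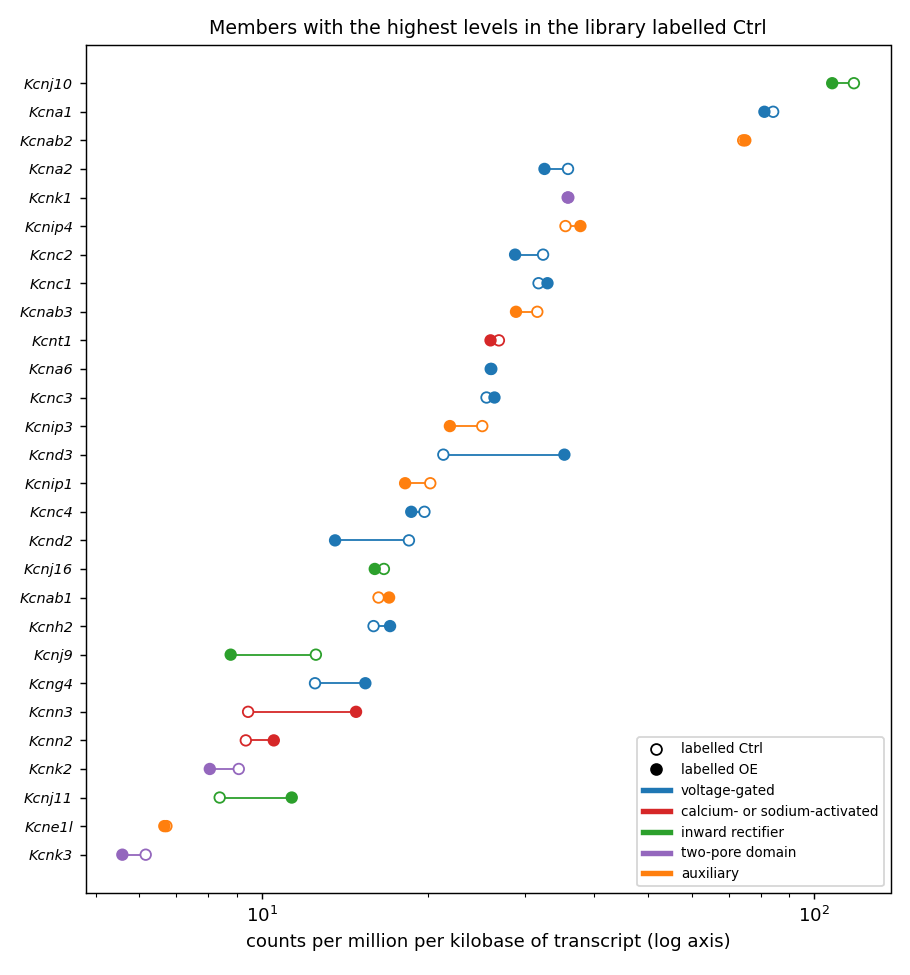
Level in CPM (on the TMM-scaled library size) per kilobase of transcript, on a log axis, of members with the highest levels under the Ctrl label. Open circles are the library labelled Ctrl, filled circles the library labelled OE, and colours the channel class. For most members the circles nearly touch, and Kcnd3 (21.3 and 35.3), Kcnn3 (9.44 and 14.8), Kcnd2 (18.5 and 13.6) and Kcnj9 (12.5 and 8.78) have the widest gaps.

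Among voltage-gated channels, 35 of 40 members averaged 10 counts or more, with a median of -0.053. By more than log2 0.2, 7 of them were higher and 11 lower, beside 17.9% and 16.6% of all genes tested. The clearest contrast lay within the Kcnd genes, which encode the Kv4 channels of the A-type current that opens below the firing threshold. Kcnd3 (Kv4.3) had 2608 counts under the Ctrl label and 5367 under the OE label, a difference of 0.73 (0.66 to 0.80), or 1.66-fold. Kcnd2 (Kv4.2) had 1624 and 1483 counts, a difference of -0.44 (-0.55 to -0.34). Kcnd1, with 94 and 121 counts, differed by 0.051 (-0.35 to 0.46), which was not detectable at this depth. The Kv4 genes therefore moved apart and not together. There were 1.61 counts of Kcnd3 for each count of Kcnd2 under the Ctrl label (1.51 to 1.71) and 3.62 under the OE label (3.42 to 3.84), and the share of Kcnd3 in all Kcnd counts was 60.3% (58.8% to 61.7%) and 77.0% (76.0% to 78.0%).

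Kcnd3 lies on chromosome 3 (GRCm38, 105451890 to 105674002) and Kcnd2 on chromosome 6 (21215346 to 21729805). The 250 bases before the annotated starts of both genes are shown because this pair went in opposite directions. The sequences are from RefSeq (GRCm38.p6), both genes lie on the plus strand, and capitals mark CG dinucleotides, the sites of DNA methylation.
Kcnd3, chr3:105451640-105451889: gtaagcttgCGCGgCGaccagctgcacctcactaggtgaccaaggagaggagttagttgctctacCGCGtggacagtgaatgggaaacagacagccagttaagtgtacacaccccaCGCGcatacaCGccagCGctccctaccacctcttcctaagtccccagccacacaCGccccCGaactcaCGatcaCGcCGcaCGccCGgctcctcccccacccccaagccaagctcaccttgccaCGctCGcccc
Kcnd2, chr6:21215096-21215345: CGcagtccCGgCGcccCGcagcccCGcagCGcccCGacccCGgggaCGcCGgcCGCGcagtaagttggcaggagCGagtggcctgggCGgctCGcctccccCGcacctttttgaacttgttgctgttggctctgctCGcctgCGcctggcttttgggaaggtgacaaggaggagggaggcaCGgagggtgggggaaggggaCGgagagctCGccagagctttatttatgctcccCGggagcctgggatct
Both stretches are rich in CG, with 18 in the Kcnd3 sequence and 22 in the Kcnd2 sequence.

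COUP-TF receptors bind repeats of the half-site AGGTCA, so promoters of 300 bases (250 before and 50 after each annotated start) were searched for these letters on both strands, where the other strand reads TGACCT. The RefSeq table held promoters for 68 of the 93 channel genes, and 6 of their 93 promoters (6.45%) held the letters, beside 16.3% of all 32851 promoters of the same length. They occur in neither the Kcnd3 nor the Kcnd2 promoter, nor in those of Kcnj6, Kcnj9, Kcnn3 and Kcns3. The promoters of the 6 members that hold them are shown from the first match to the last with 20 bases on each side, read along the gene's strand with the letters in capitals.
Kcnip4, chr5:49285751-49285796, minus strand: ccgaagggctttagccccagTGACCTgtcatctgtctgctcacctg
Kcnj16, chr11:110967823-110967894, plus strand: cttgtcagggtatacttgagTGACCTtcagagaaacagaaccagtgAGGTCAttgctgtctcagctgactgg
Kcnf1, chr12:17176937-17177035, minus strand: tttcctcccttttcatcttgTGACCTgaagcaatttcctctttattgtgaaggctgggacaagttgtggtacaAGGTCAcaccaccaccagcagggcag
Kcnh1, chr1:192190534-192190579, plus strand: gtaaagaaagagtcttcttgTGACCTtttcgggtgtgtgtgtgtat
Kcnk10, chr12:98575150-98575195, minus strand: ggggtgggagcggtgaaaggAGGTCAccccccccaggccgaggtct
Kcna10, chr3:107182909-107182954, plus strand: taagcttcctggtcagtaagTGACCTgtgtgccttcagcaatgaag
The differences of these members were 0.090 for Kcnip4, -0.055 for Kcnj16, -0.22 for Kcnf1, 0.049 for Kcnh1 and 0.16 for Kcnk10, and Kcna10 had only 3 counts and 0. Kcnj16 and Kcnf1 hold 2 matches each, which point in opposite directions and lie 20 and 47 bases apart, so 2.15% of the member promoters hold more than 1 match, beside 1.79% of all promoters. A match is a description of the letters and not a binding site.

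Kcns3 had the largest difference of the voltage-gated members with at least 100 counts. It encodes Kv9.3, a subunit that forms no channel on its own and modifies Kv2 channels, and had 254 and 601 counts, a difference of 0.93 (0.72 to 1.15). Kcnb2 (Kv2.2), a delayed rectifier, had 60 and 50 counts, a difference of -0.57 (-1.15 to -0.010). Another silent partner of Kv2, Kcng4 (Kv6.4), was higher under the OE label, with 811 and 1243 counts and a difference of 0.30 (0.17 to 0.43), while Kcnf1 (Kv5.1), with 334 and 356 counts, was lower by -0.22 (-0.44 to -0.0014). Silent subunits thus went both ways.

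The Kcna and Kcnc families held the most counts among voltage-gated channels, and their summed normalized counts differed by log2 -0.085 and -0.019. Single members could differ more. Kcna2, the main partner of Kcna1 in axonal Kv1 channels, had 7085 and 7980 counts and a difference of -0.14 (-0.19 to -0.095), and Kcna4, the Kv1 channel that inactivates, had 370 and 383 counts and a difference of -0.26 (-0.47 to -0.053). All 4 Kcnc genes, which encode the Kv3 channels of fast-spiking neurons, lay between -0.17 and 0.054. Kcnq5, a Kv7 channel of the M-current, had 316 and 459 counts and a difference of 0.23 (0.016 to 0.44). 

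The Kcnh genes encode the EAG, ERG and ELK channels, and 5 of their 8 members were lower by more than log2 0.2, beside 16.6% of all genes tested, while Kcnh6 was higher with 27 and 46 counts and a difference of 0.45 (-0.26 to 1.20). All 5 lower members had low counts, and the interval lay below 0 for Kcnh3 and Kcnh5. Kcnh3, an ELK channel of the forebrain, had 37 counts under the Ctrl label and 6 under the OE label, the largest difference of any member that averaged 10 counts or more, at -2.83 (-4.47 to -1.68). Forebrain markers went both ways beside it, with 231 and 50 counts for Slc17a7 and 58 and 135 for Neurod6. Kcnh2, the ERG channel and the most abundant of the family, had 1148 and 1528 counts and a difference of 0.099 (-0.012 to 0.21).

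Of the inward rectifiers, 12 of 15 averaged 10 counts or more, with a median of -0.070. By more than log2 0.2, 4 were higher and 4 lower, beside 17.9% and 16.6% of all genes tested. The GIRK genes, which encode channels opened by G-protein-coupled receptors, held both ends of this range among members with 100 counts. Kcnj6 (GIRK2) had 197 counts under the Ctrl label and 454 under the OE label, a difference of 0.89 (0.65 to 1.14), or 1.85-fold. Kcnj5 (GIRK4) had 91 and 148 counts, a difference of 0.39 (0.0021 to 0.78). Kcnj9 (GIRK3) had 825 and 719 counts after rounding, a difference of -0.51 (-0.66 to -0.37), and Kcnj3 (GIRK1), the common partner in most neuronal GIRK channels, had 358 and 337 counts, a difference of -0.40 (-0.62 to -0.18). Kcnj6 took 13.4% of GIRK counts under the Ctrl label (11.7% to 15.2%) and 27.4% under the OE label (25.2% to 29.6%), and Kcnj9 took 56.1% (53.5% to 58.6%) and 43.4% (41.0% to 45.8%). Kcnj6 lies on chromosome 16 (94744980 to 94997696), Kcnj9 on chromosome 1 (172320508 to 172329322) and Kcnj3 on chromosome 2 (55411798 to 55598145), so these genes are not neighbours. The order of Kcnj6 and Kcnj3 turned over in counts, from 0.55 counts of Kcnj6 for each of Kcnj3 (0.46 to 0.66) to 1.35 (1.17 to 1.56). Kcnj4 (Kir2.3) had a difference of 0.96 but only 13 and 32 counts, and its interval ran from 0.016 to 2.04.

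Each pore gene of the ATP-sensitive channels lies beside the gene of its sulfonylurea receptor. Kcnj11 (Kir6.2), the pore of the neuronal form, had 450 and 755 counts, a difference of 0.43 (0.26 to 0.60), and its neighbour Abcc8 (SUR1) on chromosome 7, 3.57 kb away, had 363 and 517 counts, a difference of 0.20 (0.00055 to 0.39). Kcnj8 (Kir6.1), the pore found in pericytes and smooth muscle, had 119 counts in each library, a difference of -0.31 (-0.69 to 0.066), and its neighbour Abcc9 (SUR2) on chromosome 6, 16.2 kb away, had 382 and 386 counts, a difference of -0.30 (-0.51 to -0.090). The interval of Kcnj8 includes 0, so no difference was detectable at this depth, and the mural markers beside it had summed normalized counts of 3817 and 2953. Kcnj11 took 79.1% (75.5% to 82.4%) of the counts of both pores under the Ctrl label and 86.4% (83.9% to 88.6%) under the OE label.

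Inward rectifiers of glia had many counts and small differences, while the one of choroid plexus had few counts and a large ratio. Kcnj10 had 10890 and 12359 counts, a difference of -0.13 (-0.17 to -0.093), and Kcnj16 (Kir5.1), its partner in astrocytes, had 1051 and 1257 counts, a difference of -0.055 (-0.17 to 0.065). Kcnj2 (Kir2.1), a strong rectifier of the resting potential, had 291 and 341 counts and differed by -0.084 (-0.31 to 0.15), and Kcnj12 (Kir2.2) had 251 and 265 counts and differed by -0.23 (-0.49 to 0.020). Kcnj13 (Kir7.1), a channel of the choroid plexus, had 13 counts and 3, a log2 ratio of -2.23 with an interval from -4.88 to -0.57. Beside it, Ttr, the most abundant transcript of choroid plexus, had 426 and 67 counts, and Clic6 of the same list had 62 and 90. Kcne2, an auxiliary subunit also found there, had 6 and 11 counts.

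**Figure D3:**
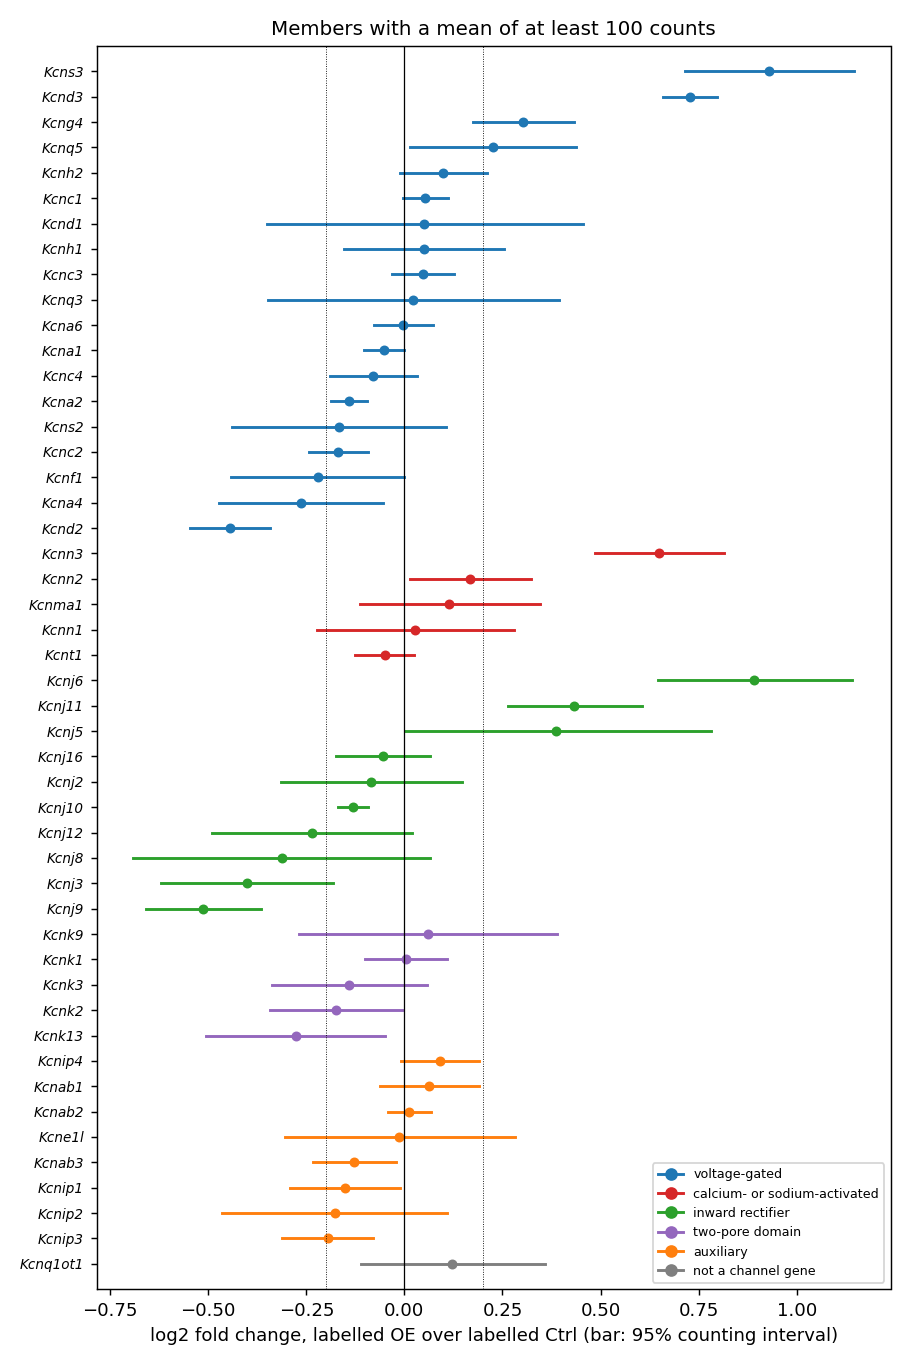
Log2 fold change, OE label over Ctrl label, for members that averaged 100 counts or more, grouped by class. Points are the values, bars the 95% counting intervals, and dotted lines log2 0.2 in either direction. Kcns3, Kcnj6, Kcnd3 and Kcnn3 sit between 0.65 and 0.93 with intervals that start above 0.4, and Kcnj9, Kcnd2 and Kcnj3 sit between -0.51 and -0.40.

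Of the calcium- or sodium-activated channels, 7 of 8 averaged 10 counts or more, with a median of 0.028. By more than log2 0.2, 1 was higher and 1 lower, beside 17.9% and 16.6% of all genes tested. The higher member was Kcnn3, which encodes SK3, the small-conductance channel that gives dopaminergic neurons their long afterhyperpolarization. It had 465 counts under the Ctrl label and 906 under the OE label, a difference of 0.65 (0.49 to 0.81), or 1.57-fold. Kcnn2 (SK2) had 588 and 821 counts and a difference of 0.17 (0.014 to 0.32), and Kcnn1 (SK1) had 236 and 299 counts and a difference of 0.028 (-0.22 to 0.28). Kcnn3 lies on chromosome 3 (89520164 to 89672494), far from Kcnd3 on the same chromosome. The SK genes did not split into higher and lower members as the Kv4 and GIRK genes did. Kcnn3 took 36.1% (33.4% to 38.8%) and 44.7% (42.5% to 46.9%) of their counts. Kcnma1, the large-conductance BK channel, had 275 and 370 counts and differed by 0.11 (-0.11 to 0.35). The lower member was Kcnt2, a sodium-activated channel, with 97 and 84 counts and a difference of -0.52 (-0.96 to -0.084).

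**Figure D4:**
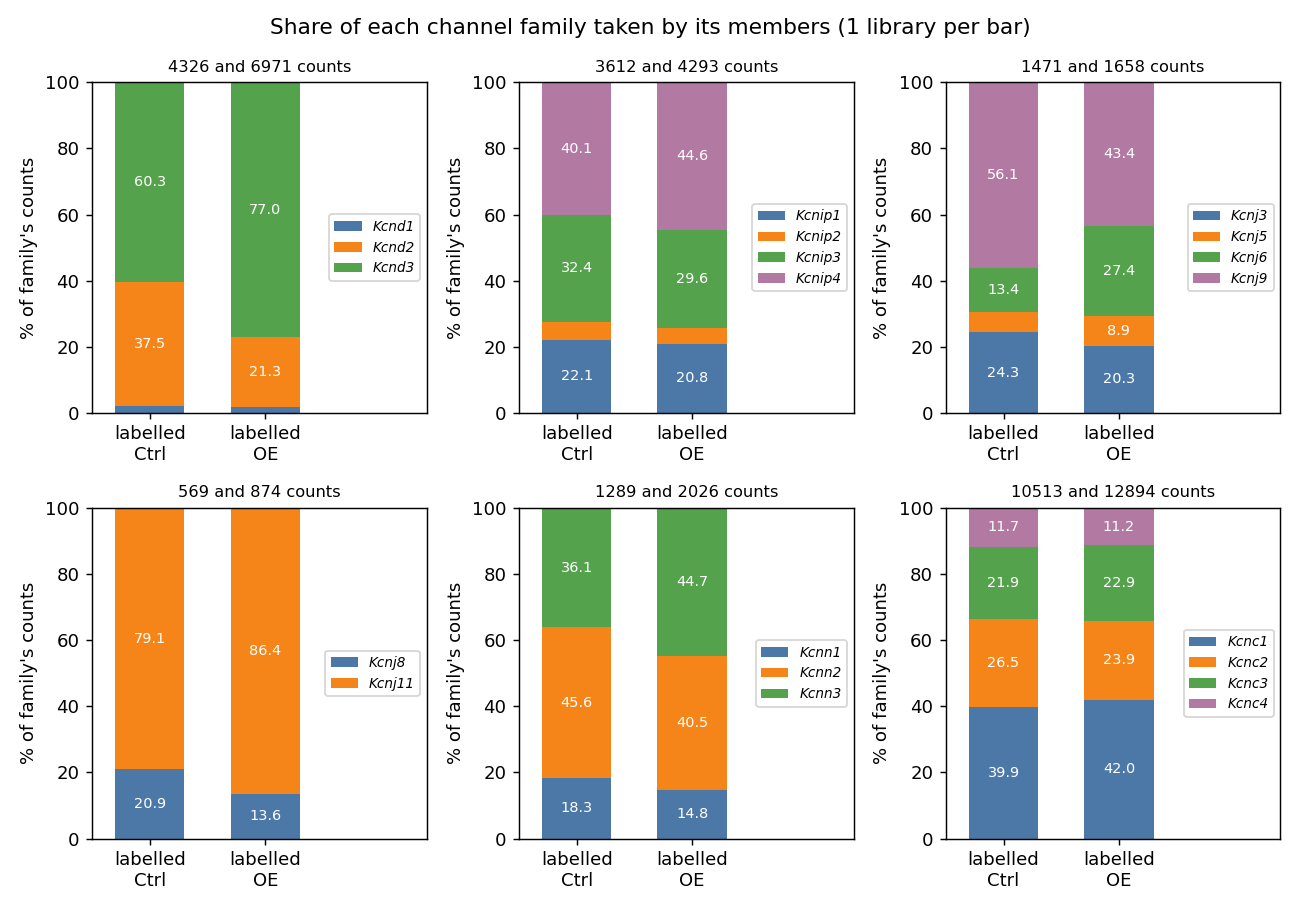
Stacked bars give the percentage of a family's expected counts taken by each member under the Ctrl label and the library labelled OE, with the family's counts in these libraries above each panel. The panels show Kv4 channels, their KChIP partners, GIRK channels, ATP-sensitive pores, SK channels and Kv3 channels. Kcnd3 goes from 60.3% to 77.0% and Kcnj6 from 13.4% to 27.4%, while the Kv3 members stay within 2.61 points.

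Of the two-pore domain channels, 10 of 14 averaged 10 counts or more, with a median of -0.065. By more than log2 0.2, 1 was higher and 2 were lower, beside 17.9% and 16.6% of all genes tested. Kcnk13 (THIK-1), the main two-pore channel of microglia, had 317 and 325 counts, a difference of -0.28 (-0.50 to -0.049). Beside it, the microglia markers had summed normalized counts of 3804 and 2865. Kcnk3 and Kcnk9, the acid-sensitive TASK channels, had 401 and 452 counts and 139 and 180 counts, with differences of -0.14 (-0.34 to 0.057) and 0.060 (-0.27 to 0.39), and Kcnk1 (TWIK-1) had 1365 and 1701 counts. The higher member, Kcnk12, had 19 and 37 counts, and the lower member Kcnk5 had 17 and 13, and the interval of both included 0.

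Of the auxiliary subunits, 12 of 16 averaged 10 counts or more, with a median of -0.14. By more than log2 0.2, 1 was higher and 3 were lower, beside 17.9% and 16.6% of all genes tested. KChIP proteins, made from the Kcnip genes, bind calcium and bring Kv4 channels to the cell surface. None of the 4 Kcnip genes went as far as Kcnd3: Kcnip4 had 1449 and 1916 counts and a difference of 0.090 (-0.0094 to 0.19), Kcnip3 had 1169 and 1269 counts and a difference of -0.19 (-0.31 to -0.079), and Kcnip2 had 194 and 213 counts and a difference of -0.18 (-0.47 to 0.11). The higher member was Kcnmb2, a beta subunit that inactivates BK channels, with 44 and 92 counts and a difference of 0.74 (0.22 to 1.30).

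A list of 17 members known in dopaminergic neurons was compiled from general knowledge, with earlier results of these data known. By more than log2 0.2, 5 were higher (Kcnj6, Kcnd3, Kcnn3, Kcnj11 and Kcnj5) and 2 lower (Kcnj9 among them). Over all genes tested, these shares were 17.9% and 16.6%. The median of the list was 0.060, beside -0.053 for all members tested. All 5 higher members had an interval above 0. The differences of these 5, which were picked by the threshold, ran from 0.39 to 0.89. Over all 17 members of the list the range was -0.51 to 0.89, beside 0.79 to 2.00 for the 12 dopaminergic markers. Of the markers, Nr4a2 and Aldh1a1, at 0.79 and 0.83, lay within the range of the channel genes, but under Kcnj6 alone. Kcnd3, the next highest of the list, was at 0.73, under all 12 markers. Drd2, the dopamine receptor that acts through GIRK channels, was at 1.19. A link between the channel genes and these markers was not tested.

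Genes outside the symbol rule were followed in a list of 20, most with products that assemble or work with these channels. The list also held Cacng8, at 0.43 (0.13 to 0.73), and Nalcn, at 0.097 (0.020 to 0.17), which belong to other channels. Of its 18 genes that averaged 10 counts or more, 5 were higher and 3 lower by more than log2 0.2, with a median of 0.065. Over all genes tested, 17.9% were higher and 16.6% lower. The 5 higher genes included Cacng8 and, with few counts, Lrrc38 at 0.99 (0.19 to 1.88) and Kcnrg at 0.66 (-0.54 to 2.02). The Kv4 partners Dpp6 and Dpp10 differed by 0.059 (0.011 to 0.11) and 0.065 (-0.022 to 0.15), both less than Kcnd3 at 0.73 in the same whole tissue. Whether they follow Kcnd3 within a cell type was not tested. Lrrc55, a gamma subunit of BK channels, had 440 and 757 counts and a difference of 0.47 (0.30 to 0.64), and Gng4, a G-protein gamma subunit, had 985 and 1503 counts and a difference of 0.30 (0.18 to 0.41). Kctd12, which binds GABA-B receptors and speeds the decay of their GIRK response, had 1369 and 1293 counts and a difference of -0.40 (-0.51 to -0.28), while the receptor genes Gabbr1 and Gabbr2 differed by -0.014 (-0.047 to 0.019) and -0.11 (-0.20 to -0.031).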

How the data were processed

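Per the study, dissected ventral midbrain went to a contract laboratory, where a stranded mRNA kit was used, 50 bp were read from both ends and an in-house pipeline was applied. The authors deposited RSEM expected counts per gene, which are estimated counts that share reads between similar transcripts, without scaling. The submitters' processing notes name mm10, and the aligner, the RSEM version and the annotation are not given in the sources used here. Each column was tied to its sample by the number in the sample's title.

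From there, counts were scaled by TMM (edgeR 4.0.16 in R 4.3.3, factors 1.01 and 0.995). A pseudocount of 0.5 was added to scaled counts before log2 fold changes were taken, at the geometric mean of both scaled library sizes, and counts and medians used genes that averaged 10 counts or more. Intervals are exact 95% Clopper-Pearson intervals on rounded counts (scipy 1.17.1, numpy 2.4.6, pandas 2.3.3 and matplotlib 3.10.9 in Python 3.11.15). The code was tried on simulated counts that held counting error only, which cannot speak to variation between animals. No log2 fold change was given where both libraries had 3 counts or fewer. With 1 library per group no p-value was computed. Transcript lengths came from GENCODE M21, gene positions and promoters from RefSeq (GRCm38.p6, the assembly of mm10), matched by symbol.

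The members and lists were chosen with earlier results of these data known. Named members are those with the 10 largest differences in each direction among members with a mean of at least 100 counts, those over log2 1, the highest level in each class, and members known in dopaminergic neurons or in glia, vessels and choroid plexus. Other members (Kcnb2, Kcnc and Kcnn genes, Kcnd1, Kcnh2, Kcnh5, Kcnh6, Kcnj4, Kcnk5, Kcnk10, Kcnk12, Kcnmb2, Kcnt2, Kcnh1, Kcna10, Kcna3, Kcnq1, Kcnd3os and those with 1 to 3 counts) were named after their values were seen. Alternatives were scaling by total counts, the upper quartile or DESeq2 size factors (1.42.0), a pseudocount of 5, other count minimums and thresholds, and shares per kilobase. Some members are counted in the totals and medians but are not reported here one by one.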

Additional observations from a re-analysis of the deposited data

How the results depend on the processing

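No paired analysis was possible because there was a single library of either genotype. Scaling by total counts, the upper quartile or DESeq2 size factors and a pseudocount of 5 left 14 members higher and 21 or 22 lower. Counts moved with the filter and the threshold, as fewer members can pass a stricter one. At a mean of 100 counts or more, 8 were higher and 8 lower, past log2 0.5 they were 8 and 10, past log2 1 they were 0 and 1, and with an interval that excluded 0 they were 11 and 11. The median of all members stayed between -0.068 and -0.0081. That of voltage-gated members reached 0.022 and that of calcium- or sodium-activated members -0.011 under other filters or scalings, so neither has a settled sign. Shares per kilobase kept the direction of the largest shift in each family, with 18.5 in place of 16.7 points for Kcnd3. Kcnj13 and Kcnh3, with few counts, went from -2.23 to -1.34 and from -2.83 to -2.16 with a pseudocount of 5. RSEM shares reads between overlapping transcripts, and whether counting used strand is not given in the sources used here, so Kcnd3 and Kcnd3os, Kcnq1 and Kcnq1ot1, Kcnmb4 and Kcnmb4os1, and Kcnip1 and Kcnmb1, which overlap, are less certain.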

Other observations

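Members at the lower end of the counts were those whose RNA was hardly or not detected in this whole tissue at the sequencing depth. Kcna7, Kcne1, Kcnj1, Kcnk16, Kcnk18 and Kcnmb3 had 0 counts in both libraries, together with the noncoding Kcnmb4os1. Kcnj1 is the ROMK channel of kidney tubules and Kcnk18 the TRESK channel of sensory neurons. Kcnn4, Kcnk15 and Kcne3 had 1 count under the Ctrl label and 0 under the OE label, and Kcnj15 had 2 and 3. No fold is given for these genes.

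The noncoding transcripts under channel names were also measured. Kcnq1ot1, an imprinted antisense transcript inside Kcnq1, had 264 and 357 counts, a difference of 0.12 (-0.11 to 0.36), while Kcnq1 itself had 8 counts in each library. Kcnd3os, whose gene overlaps the start of Kcnd3 on chromosome 3, had 4 and 8 counts, a log2 ratio of 0.63 (-1.21 to 2.87), against 2608 and 5367 for Kcnd3. Among members that lie close together, Kcnj9 and Kcnj10 lie 11.9 kb apart on chromosome 1 and differed by -0.51 and -0.13, and Kcna3 and Kcna2 lie 52.8 kb apart on chromosome 3 and differed by 0.11 and -0.14, although the interval of Kcna3 ran from -0.36 to 0.59.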
